A study of Mus musculus with 8 samples.

Results

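Bnip3 encodes a receptor on the outer mitochondrial membrane, and its transcript was examined in mouse white adipose tissue together with its paralog Bnip3l and 7 genes of the response to low oxygen: Vegfa, Pdk1, Egln1, Egln3, Hif1a, Epas1 and Ankrd37. The question was whether a lower Bnip3 signal came with other hypoxia-inducible genes or stood alone. The 9 genes were found by matching the accession of each array probe to a gene symbol. They hold 18 of the 55681 probes that are not controls and are 9 of the 25143 gene names measured. Bnip3 and the others were chosen with results of this same comparison in view, so their values, and where they fell against the threshold used for all genes, are given as a description and support nothing.

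The data came from 4 Ad/NICD and 4 wild-type (WT) samples. In Ad/NICD mice the intracellular domain of Notch1, the active fragment of the receptor, is overexpressed, per the series title. Mice of both genotypes were 5 weeks old, carried a 129 × C57BL/6 background and ate regular chow. The labels used here name neither depot nor sex nor the promoter that drives the transgene, and they call the samples biological replicates without saying whether each is 1 animal. Each of the 4 arrays carried 1 Ad/NICD and 1 WT sample of the same replicate number, in different dyes. No dyes were swapped, so an effect of dye and one of genotype cannot be told apart.

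The direction is the likely one and not a settled one. The authors' value table places WT in the green and Ad/NICD in the red channel, for at least 99.9% of probes within 0.05 log2 units, whereas the dye tags of the samples give the opposite. If the tags were right, every sign below would turn and the 2 genotypes would change places. Heyl, a direct Notch target, was at 11.04, 11.99, 11.38 and 11.83 in Ad/NICD samples 1 to 4 and at 8.74, 8.78, 8.62 and 8.61 in WT samples, on the log2 scale of normalised signal. Its log2 ratio of 2.87 ± 0.22 (SE, n = 4 arrays) passed the threshold (limma, adjusted p = 0.0399). The Notch1 probe read 10.32, 8.95, 8.85 and 8.53 in Ad/NICD samples and 9.08, 8.60, 8.86 and 8.67 in WT samples, a ratio of 0.36 ± 0.31. The genotypes overlapped, and whether the probe lies in the overexpressed fragment is not known here. Between 58.1% and 68.6% of spots per channel were well above background. Xist and Y-linked genes had the male pattern in both samples of replicate 4 and the female pattern in the other 6.

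Cells sense oxygen through prolyl hydroxylases, which mark the α subunits of hypoxia-inducible factor (HIF) for ubiquitination by the von Hippel-Lindau complex and for degradation. When oxygen is scarce the α subunits persist, pair with ARNT and bind DNA at hypoxia response elements, raising genes of glycolysis, angiogenesis and mitochondrial turnover. BNIP3 and BNIP3L (also called NIX) bind LC3-family proteins through a short motif and so bring mitochondria into autophagosomes, a process called mitophagy. Bnip3 is a HIF target in many cell types, and in muscle FoxO factors are also known to raise it.

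The core of a hypoxia response element reads ACGTG or GCGTG, and both were searched on both strands in the 250 bases before each annotated start. The sequences are from RefSeq on GRCm38.p6, and 7 of the 9 genes had an entry. The promoters shown are those of Bnip3, Pdk1, Egln3 and Ankrd37. The brightest probes of Bnip3 and Pdk1 did not overlap between genotypes. Egln3 had the lowest mean ratio after that of Bnip3. Ankrd37 holds 4 motif matches and had a ratio near 0. Each runs 5′ to 3′ on the strand of its gene, at chr7:138909507-138909756 (minus strand) for Bnip3, chr2:71872974-71873223 (plus strand) for Pdk1, chr12:54203875-54204124 (minus strand) for Egln3 and chr8:45999851-46000100 (minus strand) for Ankrd37. Capitals mark every match on either strand.
Bnip3: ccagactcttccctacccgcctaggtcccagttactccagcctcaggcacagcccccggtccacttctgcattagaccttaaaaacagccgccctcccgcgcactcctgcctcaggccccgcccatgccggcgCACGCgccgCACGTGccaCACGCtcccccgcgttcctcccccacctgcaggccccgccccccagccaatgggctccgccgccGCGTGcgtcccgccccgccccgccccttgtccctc
Pdk1: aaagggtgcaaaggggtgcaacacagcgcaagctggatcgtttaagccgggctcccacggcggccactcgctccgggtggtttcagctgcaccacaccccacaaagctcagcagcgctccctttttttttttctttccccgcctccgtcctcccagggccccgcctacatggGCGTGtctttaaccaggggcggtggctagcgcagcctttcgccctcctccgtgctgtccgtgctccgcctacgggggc
Egln3: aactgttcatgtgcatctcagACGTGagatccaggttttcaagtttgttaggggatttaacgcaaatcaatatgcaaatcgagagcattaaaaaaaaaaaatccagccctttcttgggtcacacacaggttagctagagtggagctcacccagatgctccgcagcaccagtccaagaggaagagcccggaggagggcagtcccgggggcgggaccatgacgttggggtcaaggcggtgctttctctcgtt
Ankrd37: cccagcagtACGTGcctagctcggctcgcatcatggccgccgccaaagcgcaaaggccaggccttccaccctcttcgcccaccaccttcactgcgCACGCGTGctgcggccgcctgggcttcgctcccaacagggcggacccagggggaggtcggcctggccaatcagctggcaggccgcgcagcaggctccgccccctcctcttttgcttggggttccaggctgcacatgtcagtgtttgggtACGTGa

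The Bnip3 promoter held 5 matches. ACGTG occurred 108 bases before the start on the minus strand and 107 bases before it on the plus strand, which is 1 palindrome read from both sides. GCGTG occurred at 117 and 99 bases on the minus strand and at 35 bases on the plus strand. Pdk1 had 1 GCGTG at 78 bases and Egln3 1 ACGTG at 229 bases. Ankrd37 held 2 of each motif, with its nearest ACGTG 6 bases from the start. Of all 32851 promoter windows of this length, 16.6% held ACGTG, 28.2% held GCGTG and 38.6% held either, and of the 9 windows of the 7 genes, 6 held ACGTG and 7 held either. Some of these windows lie within the annotated span of their gene, before a start inside it. This holds for Ankrd37, for Hif1a and for a further window each of Vegfa and Pdk1. A match is a description of the letters and not of binding. Bnip3 had 5 matches and a ratio of -1.52, and Ankrd37 had 4 and -0.13. Egln3 had 1 and -0.58, and Pdk1 had 1 and -0.55. A link between matches and ratio was not tested.

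Bnip3 had the lowest mean ratio of the 9 genes. Its brightest probe, A_55_P2091473, read 13.09, 13.29, 12.98 and 13.22 in Ad/NICD samples 1 to 4, against 14.48, 14.94, 14.76 and 14.46 in WT samples. Every Ad/NICD sample was below every WT sample, by more than 1 log2 unit. The log2 ratio of Ad/NICD over WT was -1.39, -1.65, -1.78 and -1.24 on the 4 arrays, with a mean of -1.52 ± 0.12 (SE, n = 4), which is 2.86-fold lower in Ad/NICD tissue. Of the 25143 gene names, 0.227% had a lower mean ratio.

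All Bnip3 probes pointed the same way, with sizes that differed. Probe A_55_P2091472 read 12.33, 12.32, 12.04 and 12.35 in Ad/NICD samples and 13.24, 13.58, 13.35 and 13.17 in WT samples, a ratio of -1.07 ± 0.12. Probe A_66_P120736 read 7.56, 7.32, 7.2 and 7.57 in Ad/NICD samples and 7.87, 8.60, 8.02 and 8.21 in WT samples, a ratio of -0.76 ± 0.20. For each of these the genotypes did not overlap, and every channel was well above background. The Bnip3 gene lies at chr7:138890836-138909506 on GRCm38.p6. In whole tissue, fewer cells of a type and less RNA per cell cannot be told apart.

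**Figure D1:**
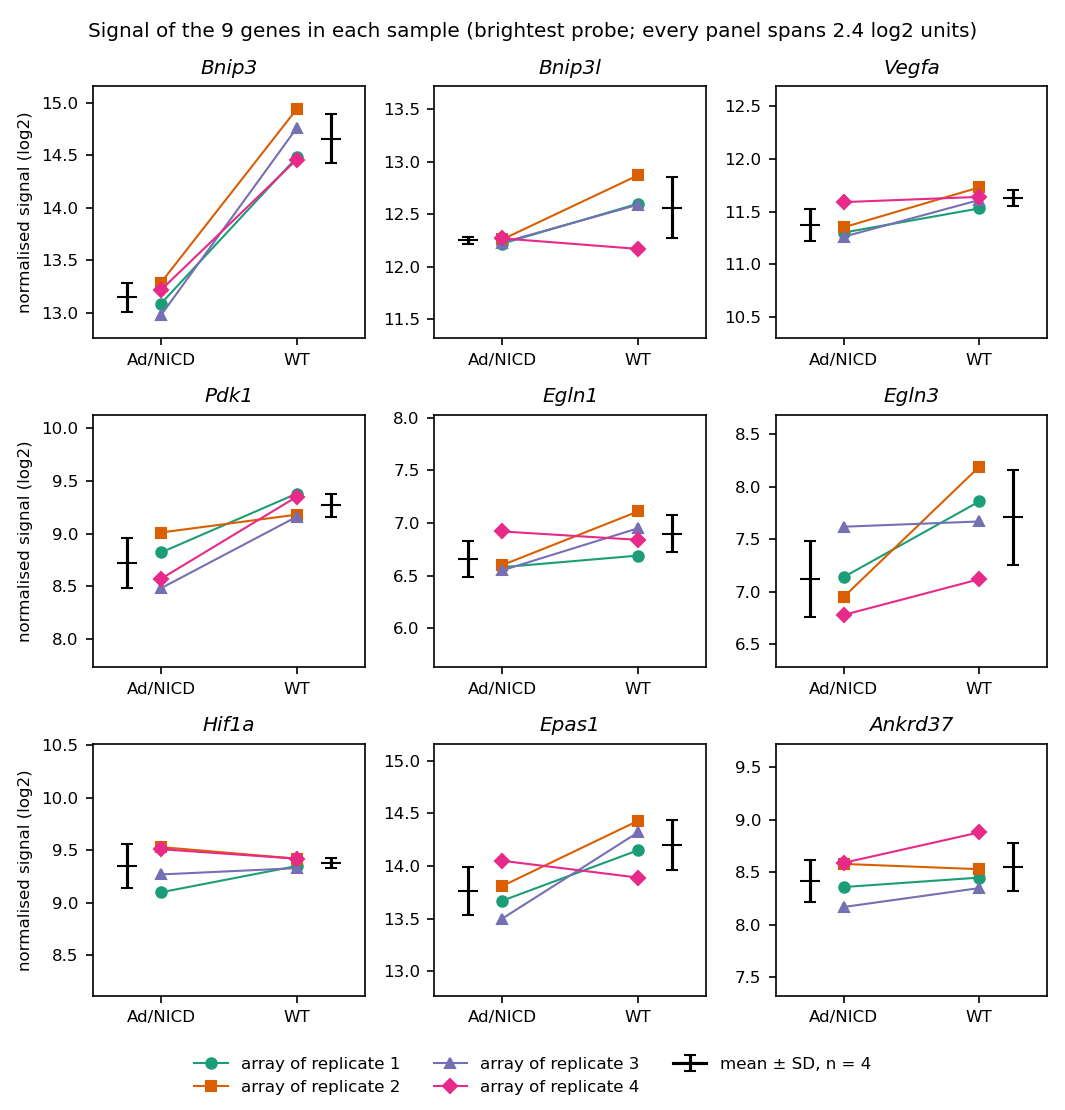
Log2 normalised signal (vertical axis) of the brightest probe of each of the 9 genes in Ad/NICD samples (left) and WT samples (right), with a line joining the samples of 1 array and bars for the mean ± SD of 4 samples. Bnip3 sits at 12.98 to 13.29 in Ad/NICD samples and at 14.46 to 14.94 in WT samples, Pdk1 is separated more narrowly, and the other 7 genes overlap.

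With the threshold at an adjusted p of 0.05 over all gene names, 12 of 25143 passed, or 0.0477%, and Bnip3 was the 1 gene of the 9 among them. Since this contrast was used to choose Bnip3, nothing is read from that count. The call depended on the settings: it was kept in 6 of 15, and lost without replicate 1, 2 or 3, with the scanner's processed signals, with median centring in place of loess, without the filter on dim probes, with the mean over probes, with limma's trend and robust options and in the authors' value table. The ratio itself was between -1.82 and -1.12 in all 15.

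Bnip3l, the paralog of Bnip3 and the mitophagy receptor that clears mitochondria from maturing red cells, was less separated. Its brightest probe, A_55_P1961463, read 12.22, 12.26, 12.23 and 12.27 in Ad/NICD samples and 12.60, 12.87, 12.59 and 12.17 in WT samples. The WT sample of replicate 4 was below every Ad/NICD sample, so the genotypes overlapped, while the Ad/NICD samples lay within 0.05 of each other. The ratios of -0.38, -0.61, -0.36 and 0.10 averaged -0.31 ± 0.15.

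The other 3 Bnip3l probes gave mean ratios of -0.68 ± 0.13, -0.52 ± 0.15 and -0.26 ± 0.11. Probe A_55_P1961461 averaged 11.40 ± 0.07 in Ad/NICD samples and 12.08 ± 0.19 in WT samples (SD, n = 4 each), with no overlap. Probe A_55_P2073699, with 10.73, 10.72, 10.57 and 10.78 in Ad/NICD samples and 11.24, 11.56, 11.20 and 10.89 in WT samples, did not overlap either. For every Bnip3l probe the ratio lay closest to 0, or above it, on the array of replicate 4.

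Hif1a and Epas1 encode the oxygen-regulated subunits HIF-1α and HIF-2α, whose protein, more than their transcript, is controlled by oxygen. Hif1a read 9.10, 9.53, 9.27 and 9.51 in Ad/NICD samples and 9.35, 9.42, 9.33 and 9.42 in WT samples. The Ad/NICD samples surrounded the WT ones, and the mean ratio was -0.03 ± 0.08. The sign of so small a value turned without replicate 1, where it was 0.05.

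Epas1, the subunit prominent in endothelium, was given differently by its 3 probes. The brightest, A_51_P250058, read 13.67, 13.81, 13.50 and 14.05 in Ad/NICD samples and 14.15, 14.43, 14.32 and 13.89 in WT samples, a mean ratio of -0.44 ± 0.21. On the array of replicate 4 the Ad/NICD sample was the higher one, and the genotypes overlapped. Probe A_55_P2053988 had -0.28 ± 0.21 and probe A_55_P2077448 had 0.16 ± 0.14, the 1 probe of the 18 with a mean above 0. The probes thus disagree on the side of 0.

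Egln1 and Egln3 encode the prolyl hydroxylases PHD2 and PHD3, which are themselves HIF targets. Egln3 read 7.14, 6.95, 7.62 and 6.78 in Ad/NICD samples and 7.86, 8.19, 7.67 and 7.12 in WT samples at its brightest probe, A_52_P387009. Its ratio was below 0 on each array, at -0.72, -1.24, -0.04 and -0.34, with a mean of -0.58 ± 0.26, and the levels overlapped. Without replicate 2 the mean was -0.37. With the scanner's processed signals it was -1.12, beside -1.47 for Bnip3, and in the authors' value table -1.13, beside -1.48 for Bnip3. The other Egln3 probe, A_55_P1960916, read 6.68, 6.36, 6.78 and 6.44 in Ad/NICD samples and 6.95, 7.27, 7.0 and 6.80 in WT samples, without overlap, a ratio of -0.44 ± 0.16. Egln1 read 6.58, 6.60, 6.55 and 6.92 in Ad/NICD samples and 6.69, 7.11, 6.95 and 6.84 in WT samples. These overlapped, at a mean ratio of -0.23 ± 0.13 that was -0.14 without replicate 2, -0.39 with processed signals, -0.38 with an offset of 10 and -0.40 in the authors' value table.

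Among the remaining HIF targets, Pdk1 was the gene whose levels separated by genotype. It encodes a kinase that switches off pyruvate dehydrogenase and so keeps pyruvate out of the citric acid cycle. It read 8.82, 9.01, 8.48 and 8.57 in Ad/NICD samples and 9.38, 9.18, 9.16 and 9.35 in WT samples. The highest Ad/NICD sample, that of replicate 2, lay just below the lowest WT sample, that of replicate 3. The 4 ratios of -0.57, -0.17, -0.68 and -0.78 averaged -0.55 ± 0.13, or 1.46-fold lower in Ad/NICD tissue.

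Vegfa encodes the main angiogenic growth factor that adipocytes secrete under low oxygen. It read 11.30, 11.35, 11.26 and 11.59 in Ad/NICD samples and 11.53, 11.73, 11.61 and 11.64 in WT samples. Its 4 ratios were below 0, from -0.38 to -0.05, with a mean of -0.26 ± 0.08, and the Ad/NICD sample of replicate 4 overlapped the WT ones. The other Vegfa probe, A_52_P249424, had -0.38 ± 0.16 with 0.09 on the array of replicate 1. Ankrd37, an ankyrin-repeat gene that is strongly HIF-inducible in many cell types, read 8.36, 8.58, 8.17 and 8.59 in Ad/NICD samples and 8.45, 8.53, 8.35 and 8.88 in WT samples. The genotypes overlapped, and the mean ratio was -0.13 ± 0.07.

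**Figure D2:**
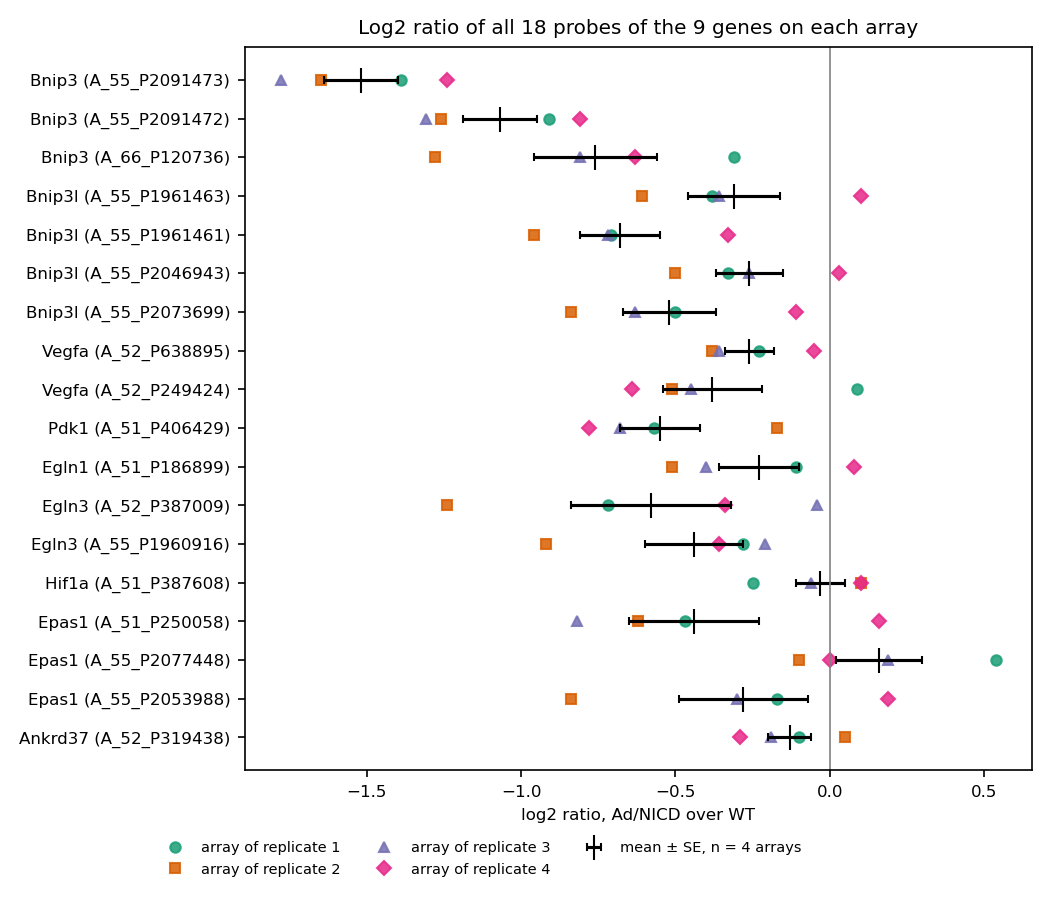
Log2 ratio of Ad/NICD over WT (horizontal axis) of all 18 probes of the 9 genes, with 1 point per array and bars for the mean ± SE of 4 arrays. The 3 Bnip3 probes average -1.52, -1.07 and -0.76, and 17 of the 18 probe means lie below 0.

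Across the 9 genes, the brightest-probe mean was below 0 for all 9, against 51.6% of all gene names. The ratio was below 0 on all 4 arrays for 4 genes, Bnip3, Vegfa, Pdk1 and Egln3, where 13.3% of gene names were lower on all 4. At the brightest probe, levels did not overlap for 2, Bnip3 and Pdk1, where 5.58% of gene names had every Ad/NICD level below every WT level. Dimmer probes of Bnip3l (A_55_P1961461 and A_55_P2073699) and of Egln3 (A_55_P1960916) did not overlap either. The genes were chosen on this contrast, so these counts describe the choice. Pdk1 and Egln3, the next lowest, had ratios of -0.55 and -0.58 beside -1.52 for Bnip3. The distance of Egln3 from Bnip3 depended on the processing. Egln3 was dim, with means of 7.12 in Ad/NICD and 7.71 in WT samples, beside 13.15 and 14.66 for Bnip3. The offset of 50 added to every signal draws the ratio of a dim probe closer to 0. Egln3 was at -0.78 with an offset of 10 and -1.12 with processed signals, beside -1.54 and -1.47 for Bnip3.

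The levels of the 8 other genes were set beside those of Bnip3 over the 8 samples, as a description in which the samples of 1 array share that array. Pearson's r was 0.84 for Vegfa, Pdk1 and Epas1, 0.76 for Bnip3l, 0.72 for Egln1, 0.65 for Egln3, 0.33 for Ankrd37 and 0.19 for Hif1a. With each sample taken as its deviation from its genotype's mean, r was -0.03 for Pdk1 and 0.19 for Egln3, but 0.84 for Epas1, 0.74 for Egln1, 0.73 for Bnip3l and 0.58 for Vegfa. Of all genes with a RefSeq symbol, the 5 whose levels ran most like those of Bnip3 were Rida (r = 0.988, mean ratio -0.57 ± 0.06), Asnsd1 (r = 0.987, -0.52 ± 0.02), Gpat3 (r = 0.985, -2.06 ± 0.25), Tmem134 (r = 0.982, -0.64 ± 0.10) and Cept1 (r = 0.981, -0.27 ± 0.02). None of these belongs to the lists below.

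Genes inducible by hypoxia, apart from the 9, were centred on 0. Of 34 listed, 33 were measured, with a median log2 ratio of 0.00 beside -0.0059 over all gene names, 15 below and 18 above 0. None passed the adjusted threshold (limma). At an unadjusted p under 0.05, 3 were lower and 5 higher, beside 8.97% and 6.26% of all gene names. On the 4 arrays the list medians were 0.01, -0.03, 0.01 and 0.14.

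The extremes of that list among genes with the same sign on all 4 arrays were Plod2 and P4ha2 above 0 and Stc2 and Kdm3a below it. Plod2, a lysyl hydroxylase of collagen, had ratios of 1.63, 2.19, 1.40 and 0.21, a mean of 1.36 ± 0.42 (limma, adjusted p = 0.173). P4ha2, a collagen prolyl hydroxylase, had ratios of 0.52, 0.79, 1.60 and 1.17, a mean of 1.02 ± 0.23 (limma, adjusted p = 0.134), and every Ad/NICD level was above every WT level, as for 4.21% of gene names. Stc2, a secreted glycoprotein, had -0.54 ± 0.18, and Kdm3a, a histone demethylase induced by HIF, -0.21 ± 0.05, with limma adjusted p of 0.216 and 0.25. In the alternative fit that keeps the channels apart with the array as a random block, where 212 of all gene names (0.843%) were higher, 2 of the list were called higher: P4ha2 (limma, adjusted p = 0.0348) and Hmox1 (adjusted p = 0.047), the heme oxygenase, with a ratio of 0.74 ± 0.13. Hmox1 was named after its values were seen.

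Glycolysis genes under HIF control were 6 below and 9 above 0, with a median of 0.02, where 51.6% of all gene names were below 0. None passed the adjusted threshold. At an unadjusted p under 0.05 there was 1 lower and 1 higher (limma), beside 8.97% and 6.26% of all gene names. By array the list medians were 0.52, -0.69, 0.05 and 0.10. Leaving out replicate 2 gave a median of 0.22 and leaving out replicate 1 one of -0.17. Pfkfb3, which makes the activator of phosphofructokinase, had ratios of -0.40, -1.26, -1.23 and -0.50, a mean of -0.85 ± 0.23 (limma, adjusted p = 0.159). Slc2a1, the glucose transporter GLUT1, had 0.26 ± 0.11 (adjusted p = 0.327).

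The oxygen-sensing machinery apart from the 9 had 9 members of 16 below and 7 above 0, around a median of -0.04. None passed the adjusted threshold, and 3 were lower and 3 higher at an unadjusted p under 0.05 (limma), beside 8.97% and 6.26% of all gene names. Hif1an, the asparagine hydroxylase that blocks HIF transactivation, had -0.24 ± 0.05 and Cul2, the scaffold of the von Hippel-Lindau ubiquitin ligase, -0.15 ± 0.02. Vhl, its substrate receptor, had 0.29 ± 0.11, and Hif3a, which encodes a further α subunit, 0.49 ± 0.20. Their limma adjusted p were 0.219, 0.305, 0.289 and 0.261. Rbx1, the RING subunit of the same ligase, had 0.28 ± 0.03 and is named after its values were seen. It passed in the random-block fit (limma, adjusted p = 0.0412), where 0.843% of all gene names were higher.

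**Figure D3:**
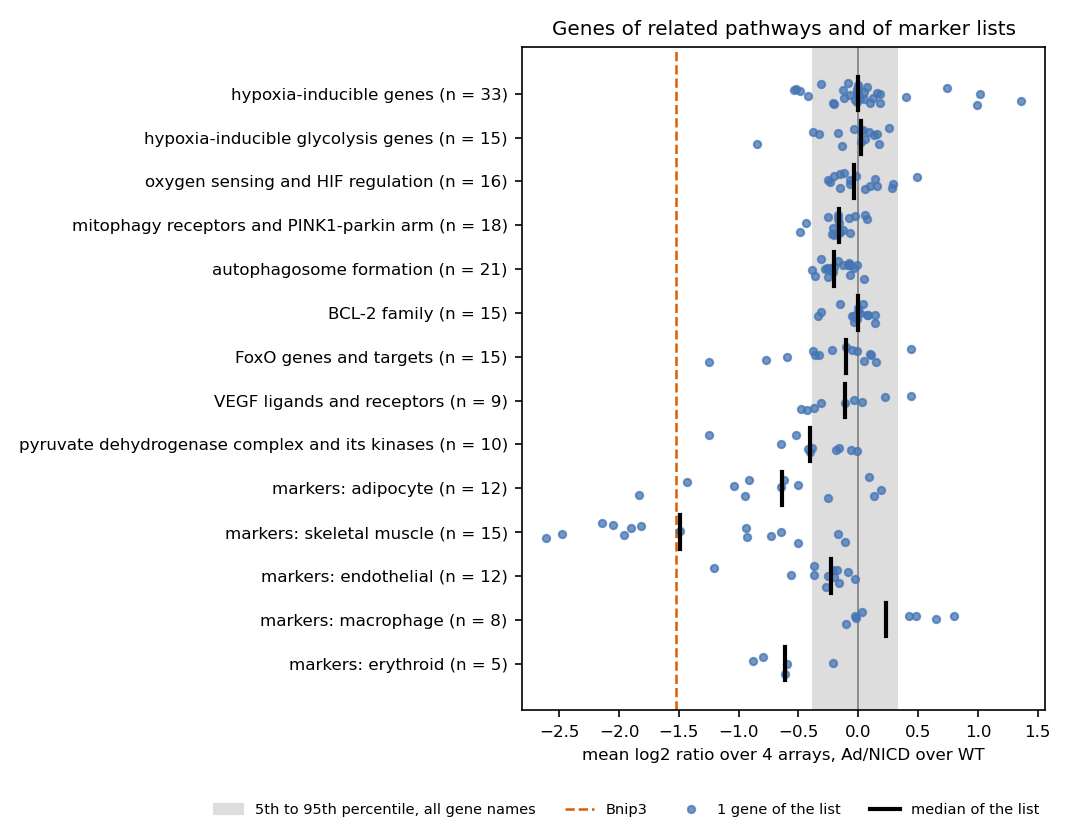
Mean log2 ratio of Ad/NICD over WT (horizontal axis) of each measured gene of 9 pathway lists and 5 cell type marker lists, with 1 point per gene, a black bar at the median of each list, a grey band from the 5th to the 95th percentile of all gene names (-0.38 to 0.32) and a dashed line at Bnip3 (-1.52). The hypoxia-inducible list centres on 0.00 while the mitophagy and autophagosome lists centre on -0.16 and -0.20.

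Other mitophagy genes leaned below 0 by small amounts. Of 18 genes of the receptors and the PINK1-parkin arm, 16 were below and 2 above 0, where 51.6% of all gene names were below 0. The list had a median of -0.16 and a range of -0.49 to 0.07. None passed the adjusted threshold, 4 were lower at an unadjusted p under 0.05 (limma) and 7 were lower on all 4 arrays, beside 8.97% and 13.3% of all gene names. Bcl2l13, another receptor of the outer membrane, had ratios of -0.18, -1.0, -0.39 and -0.37, a mean of -0.49 ± 0.18 (limma, adjusted p = 0.234). Pink1, the kinase that marks damaged mitochondria, had -0.31, -0.83, -0.52 and -0.11, a mean of -0.44 ± 0.15 (adjusted p = 0.225). Fundc1, the other hypoxia-linked receptor, had -0.03 ± 0.18, and is named after its values were seen.

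Genes of autophagosome formation had a median of -0.20, with 20 of 21 below 0, 8 lower at an unadjusted p under 0.05 and none past the adjusted threshold (limma). Of all gene names, 51.6% were below 0 and 8.97% lower at that unadjusted p. Map1lc3a, an LC3 protein, had -0.36 ± 0.13 and Becn1, of the phosphatidylinositol kinase complex that starts the process, -0.31 ± 0.08 (limma, adjusted p = 0.254 and 0.195). The BCL-2 family, to which BNIP3 is related by its BH3-like motif, had 7 members of 15 below and 8 above 0, and a median of 0.00. Of all gene names, 51.6% were below 0. None of the family passed the adjusted threshold. At an unadjusted p under 0.05, 1 was lower (limma), beside 8.97% of all gene names. Bik had -0.34 ± 0.13 (adjusted p = 0.267).

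FoxO genes and their targets had 10 members of 15 below and 5 above 0, and a median of -0.10 that was -0.20 with an offset of 10 and -0.22 with both channels above background on all arrays. At an unadjusted p under 0.05, 6 were lower and 2 higher (limma), beside 8.97% and 6.26% of all gene names, and none passed the adjusted threshold. Irs2, the insulin receptor substrate, had -0.77 ± 0.24 (adjusted p = 0.18), Foxo6 0.44 ± 0.16 (0.234) and Cdkn1b, a cell cycle inhibitor, 0.15 ± 0.02 (0.305). Pdk4, the kinase of pyruvate dehydrogenase induced by fasting, had ratios of -0.09, -2.62, -1.17 and -1.09, a mean of -1.25 ± 0.52 (adjusted p = 0.254).

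Beside Pdk1, all 10 genes of the pyruvate dehydrogenase complex and its regulators were below 0, with a median of -0.40. Of all gene names, 51.6% were below 0. None of the list passed the adjusted threshold and 1 was lower at an unadjusted p under 0.05 (limma), beside 8.97% of all gene names. Pdk4 stands in this list as well as in that of FoxO targets. That median rested on replicate 2, whose array had a list median of -1.28, and was -0.07 without it. Beside Vegfa, 6 of 9 VEGF ligands and receptors were below 0, with a median of -0.11 that was -0.22 without replicate 4. Vegfb had -0.48 ± 0.16, the receptor Flt1 -0.43 ± 0.12 and the ligand Pgf 0.44 ± 0.09 (limma, adjusted p of 0.216, 0.183 and 0.153). None of the VEGF list passed. At an unadjusted p under 0.05, 3 were lower and 1 higher (limma), beside 8.97% and 6.26% of all gene names.

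Signal of marker genes differed between the samples too, and its part in the Bnip3 result was not tested. The 12 adipocyte markers had a median ratio of -0.64, with 9 below 0, where 51.6% of all gene names were below 0. Their summed signal was 149000 to 276000 in Ad/NICD samples and 279000 to 411000 in WT samples. Of the brightest, Cfd had -1.43 ± 0.49 and Fabp4 0.13 ± 0.19. By array the adipocyte median was -0.30, -1.01, -1.09 and -0.01. Bnip3 had -1.39, -1.65, -1.78 and -1.24 on the same arrays, and whether it moves with the adipocyte median was not tested.

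The 15 skeletal muscle markers were below 0, beside 51.6% of all gene names, with a median of -1.49. Their summed signal was 3790 to 15500 in Ad/NICD samples and 5820 to 206000 in WT samples. The muscle medians by array were -0.46, -1.59, -0.47 and -3.64, and the median of the 15 mean ratios was -0.89 without replicate 4. Tnni2 had -1.90 ± 0.97 and Myl1 -0.93 ± 0.51. Bnip3 had -1.39, -1.65, -1.78 and -1.24 on these arrays, and a link with the muscle median was not tested either.

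The 12 endothelial markers were all below 0, beside 51.6% of all gene names, with a median of -0.23. Their summed signal was 27200 to 34500 in Ad/NICD samples and 36700 to 41300 in WT samples. By array the endothelial median was -0.34, -0.28, -0.42 and -0.11. Cldn5 had -1.21 ± 0.17 and Egfl7 -0.21 ± 0.12. The 5 erythroid markers measured were below 0, with a median of -0.61 and a summed signal of 27800 to 57700 in Ad/NICD samples and 47400 to 64900 in WT samples. Hbb-bt had -0.80 ± 0.26 and Hba-a1 -0.60 ± 0.30. The 8 macrophage markers had a median of 0.23, which was -0.01 without replicate 4 and -0.14 with median centring, and a summed signal of 20300 to 32300 in Ad/NICD samples and 18900 to 30900 in WT samples. Csf1r had -0.03 ± 0.36 and Cd68 0.03 ± 0.32. No marker of these 5 lists passed the adjusted threshold (limma), while 7, 8, 6 and 4 markers of adipocytes, skeletal muscle, endothelium and red cells were lower at an unadjusted p under 0.05 and 2 macrophage markers higher, beside 8.97% lower and 6.26% higher among all gene names. In the random-block fit, where 1.13% of gene names were lower, Adig and Retn of the adipocyte list and Cldn5 of the endothelial list were among them. Adig and Retn are named after their values were seen.

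**Figure D4:**
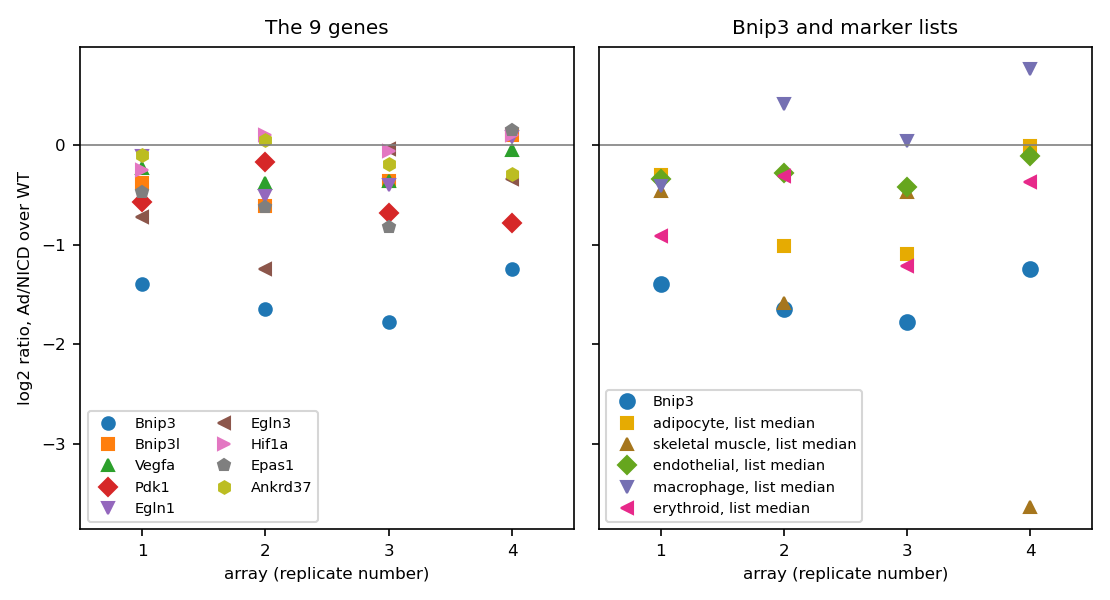
Log2 ratio of Ad/NICD over WT (vertical axis) on the array of each replicate (horizontal axis), with the brightest probe of the 9 genes on the left and Bnip3 beside the medians of 5 marker lists on the right. Bnip3 is the lowest of the 9 genes on each array, between -1.78 and -1.24, while the muscle median runs between -3.64 and -0.46 and the adipocyte median between -1.09 and -0.01.

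Replicate 4, whose samples had male-type expression of sex-linked genes, was also where several ratios turned and where the muscle median was -3.64 and the adipocyte median -0.01. On its array the brightest probes of Bnip3l, Egln1, Hif1a and Epas1 had ratios above 0, at 0.10, 0.08, 0.10 and 0.16. Hif1a was at 0.10 on the array of replicate 2 as well. Bnip3l probes A_55_P1961461 and A_55_P2073699 stayed below 0 on the array of replicate 4, at -0.33 and -0.11. At their brightest probes, Bnip3 had its smallest difference on that array and Pdk1 its largest, at -0.78. With 1 array, sex, these marker signals and replicate cannot be told apart. Without replicate 4 the mean ratio was -1.61 for Bnip3, -0.45 for Bnip3l, -0.64 for Epas1 and -0.34 for Egln1, and 43 gene names passed the threshold in place of 12.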

How the data were processed

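Total RNA from white adipose tissue was measured on 4 arrays of 2 colours, Cy3 and Cy5. Agilent Feature Extraction 11.5 read the images, per the submitters' processing notes. The scanner tables deposited by the authors hold spot intensity values that are not normalised between arrays, and the table of same-numbered Ad/NICD and WT samples was identical. Their deposited log10 ratio of red over green was not used. The deposited value table is on a log2 scale, each column being centred on its 75th percentile; its columns matched the processed signal of 1 channel each, red for Ad/NICD and green for WT.

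Background was corrected with normexp (offset 50) on median foreground and background, and each array was normalised by loess (limma 3.58.1, R 4.3.3). A probe was kept if 1 channel or both stood well above background on 3 or more arrays. The brightest probe represented each of 25143 gene names, of which 15843 have a symbol in RefSeq (GRCm38.p6). The array of replicate 1 carries no such flags, so these were rebuilt from the spread of negative controls. On the other 3 arrays the rebuilt and deposited flags were equal for 98.3% to 100% of spots. Log2 ratios of Ad/NICD over WT were tested against 0 (lmFit, eBayes, Benjamini-Hochberg, 0.05), with the array as the pair. Same-numbered samples deviated together clearly for replicates 3 and 4 only. The correlations of replicates 1 to 4 were 0.18, 0.17, 0.56 and 0.53, where the highest with another number was 0.28, 0.14, 0.28 and -0.02. For replicate 1 another number was thus the closer one, and the pairing comes from the shared array. P-values measure only the spread between these samples. Levels are log2 channel signals after quantile normalisation of average brightness, which gives all arrays the same distribution of it. Precision is limited by having 4 arrays. On simulated data of 25143 genes, 74 of 100 genes changed by 1 log2 unit and 99 of 100 changed by 3 were called, with 6 false calls. More genes changed in that simulation than passed in the real data, which loosens the adjusted threshold there. In the real data Gpat3, at -2.06, did not pass (limma, adjusted p = 0.0876), so the simulated share does not carry over.

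The 9 genes and the lists were chosen with earlier results of these data known. The genes named are the 9 genes, list genes past the threshold, the 2 highest and 2 lowest of each list with the same sign on all arrays, the 2 brightest markers of each cell type and the 5 genes most like Bnip3; others are said to be named after their values were seen. Mxi1, Arnt2 and Trim63 were not measured. The lists share some genes beside Pdk4. Kdr counts in the VEGF and endothelial lists, and Ccng2 in the hypoxia-inducible and FoxO lists. Cited2 counts in the hypoxia-inducible, oxygen-sensing and FoxO lists. In all, 14 alternatives were tried.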

Additional observations from a re-analysis of the deposited data

Results flagged for a closer look

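In 68 groups of 4 values (the ratios and the levels in each genotype of the 18 probes, and the array medians of 14 lists), 2 samples stood apart from the other 3 of their group, where chance flags about 1 in 20 groups. For the Bnip3 probe A_55_P2091472, the Ad/NICD sample of replicate 3 was at 12.04 (log2 signal), below the 12.32 to 12.35 of the other Ad/NICD samples. For Egln1 (A_51_P186899), the Ad/NICD sample of replicate 4 was at 6.92, above the 6.55 to 6.60 of the others.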

How the results depend on the processing

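The number of gene names past the threshold, 12 in the fit used above, was 3 with the scanner's processed signals and 3 in the authors' value table, and 0 with median centring, with no filter on dim probes and with trend and robust options. It was 256 with separate channels and no replicate block and 496 with the array as a random replicate block. Leaving out 1 replicate at a time gave 0 to 43. Bnip3 kept its direction in all 14 alternatives, with a ratio of -1.82 under median centring, -1.12 for the mean of probes and -1.61 to -1.43 with 1 replicate left out. Median centring moved the median of all gene names to -0.32, and beside it the medians of the hypoxia-inducible and mitophagy lists were -0.43 and -0.62. With 1 replicate left out these were -0.04 to 0.04 and -0.20 to -0.13. Egln3 was at -0.78 with an offset of 10, -1.12 with processed signals and -1.13 in the value table. Hif1a was at -0.53 under median centring and 0.05 without replicate 1. The offset of 50 added to every signal draws ratios of dim probes closer to 0. Those of Egln1 and Egln3 and the Bnip3 probe A_66_P120736 are dim. How much of these shifts comes from the offset was not tested, and no other cause was tested. In simulated data, where more genes changed than passed here, 74 of 100 changes of 1 log2 unit were called. In the real data Gpat3 missed the threshold at a mean ratio of -2.06. A ratio that misses the threshold, small or large, is thus not shown to be absent.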
